A study of Mus musculus with 24 samples.

Results

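Secreted modulators of Wnt signalling were followed in differentiating brite adipocytes after knockdown of the long noncoding RNA Ctcflos. The list held 10 of the 52089 gene symbols in the expression table: the secreted frizzled-related proteins Sfrp1, Sfrp2, Sfrp4 and Sfrp5, the Wnt inhibitory factor Wif1, the Dickkopf proteins Dkk2 and Dkk3, the ligands Wnt5a and Wnt10b, and Axin2, an intracellular feedback inhibitor kept as a readout of the pathway. Members were chosen by symbol, and each symbol was represented by its RefSeq messenger RNA entry with the highest mean abundance over the 24 libraries. Sfrp2 was lower in the knockdown at both times, Sfrp1, Sfrp2 and Wnt5a were higher in the controls at 72 h than at 24 h, and 3 members were at or close to 0 throughout.

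Wnt ligands are secreted lipid-modified glycoproteins that bind Frizzled receptors with a co-receptor. In the canonical branch they keep β-catenin from being degraded, so that it can act with TCF/LEF factors in the nucleus. Secreted frizzled-related proteins and Wif1 bind ligands outside the cell, whereas Dickkopf proteins act mainly on the LRP co-receptors. In fat, canonical signalling, classically through Wnt10b, holds preadipocytes undifferentiated, and several secreted frizzled-related proteins are known as products of adipose cells.

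Stromal vascular cells of the inguinal white depot of 129SvEv mice, males of 5 to 6 weeks by the study's methods, were cultured and turned into adipocytes. Brite cells are thermogenic adipocytes that arise in white depots, and all 4 groups had been induced for 2 days and then differentiated for 1 day with the PPARγ agonist rosiglitazone. A gapmer with locked nucleic acid ends, which makes RNase H cut the RNA it pairs with, was then delivered at 50 nM by reverse transfection, and cells were harvested after 24 h or 72 h. In KD the gapmer was 1 oligonucleotide against Ctcflos transcript 1, the same in all KD libraries, and in NC it was a nontargeting control. In these libraries the effect of the knockdown and any other effect of that oligonucleotide cannot be told apart. Each of the 4 groups, KD and NC at either time, had 6 libraries. NC 72 h replicates 2 and 3 differed by less than sampling noise and were averaged to 1 sample, which left n = 5 in NC 72 h. The paper's figure legends give the 6 samples of a group as biological replicates. Neither they nor the labels say whether these came from separate cultures or animals, and p-values measure only the spread between these samples.

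Abundance is given as RPKM, reads per kilobase of transcript and scaled to the mapped reads of the library, as deposited. Libraries held 1391832 to 5423840 mapped reads, at a median of 3945867, with the lowest in KD 24 h replicate 6. A smaller cluster of 8 libraries, 2 of each group, deviated together from the 16 others: KD 24 h replicates 3 and 4, NC 24 h replicates 5 and 6, KD 72 h replicates 5 and 6, and NC 72 h replicates 4 and 5. The clusters were found from the data and carry no label. They were formed from deviations of these same libraries from their group means, which narrows the spread within a cluster. Tests within clusters therefore tend to give p-values that are too small, and they serve as description. Ctcflos itself (NR_040321) was low, at 0.00 to 0.62 RPKM in KD 24 h and 0.18 to 1.38 in NC 24 h (two-sided exact permutation test, p = 0.045), and at 0.00 to 0.52 in KD 72 h against 0.85 to 1.75 in NC 72 h (p = 0.0043, the smallest this design can give). Adipocyte markers were abundant in every group, with summed RPKM of 6 markers from 25766 to 53515, whereas 4 endothelial markers summed to at most 1.48 and 4 epithelial markers to at most 1.18. Of the 6 adipocyte markers, all fitted, 3 were lower in KD at 24 h and 4 at 72 h. All 4 brite markers, Ucp1 among them, were fitted and lower at both times. Among all entries tested, 11.2% were called lower in KD at 24 h and 12.1% at 72 h. The part of these markers in the results on the members was not tested.

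RefSeq promoter windows in the GRCm38.p6 build, from 250 bases before to 50 bases after the transcription start, were at hand for 6 of the 10 members. The windows of Sfrp2, the member that moved most clearly with the knockdown, and of Axin2, the textbook β-catenin target of the list, are shown 5′ to 3′ on the strand of the gene, with CpG dinucleotides in capitals. Sfrp2 lies on the plus strand at chr3:83766071-83766370 and Axin2 on the plus strand at chr11:108920099-108920398.
Sfrp2: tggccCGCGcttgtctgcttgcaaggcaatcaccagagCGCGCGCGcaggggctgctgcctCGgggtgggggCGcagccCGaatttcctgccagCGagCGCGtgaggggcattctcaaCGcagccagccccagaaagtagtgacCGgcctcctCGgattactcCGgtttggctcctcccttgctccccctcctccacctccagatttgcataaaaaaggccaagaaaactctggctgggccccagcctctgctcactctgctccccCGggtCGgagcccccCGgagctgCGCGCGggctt
Axin2: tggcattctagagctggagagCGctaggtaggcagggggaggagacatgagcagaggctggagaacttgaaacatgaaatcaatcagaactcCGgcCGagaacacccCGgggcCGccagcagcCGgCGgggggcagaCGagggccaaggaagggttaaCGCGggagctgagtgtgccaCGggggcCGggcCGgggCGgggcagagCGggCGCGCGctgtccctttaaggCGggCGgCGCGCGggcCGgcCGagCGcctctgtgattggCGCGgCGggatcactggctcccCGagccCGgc
Both windows were rich in G and C, at 66% for Sfrp2 with 22 CpG and 70% for Axin2 with 31 CpG, against a median of 52.7% over all 32851 windows. The core TCF/LEF motifs CTTTGA and CTTTGT were searched on both strands, and neither window held one, while 31.2% of all windows held at least 1. Of the other members with a window, Dkk2 held 1 CTTTGT, and Sfrp5, Wnt10b and Wif1 held none. The TATA motif TATAAA occurred in the windows of Dkk2 and Wif1 and in 13.6% of all windows.

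The order of the levels was led by Sfrp2 and Sfrp1 in every group. In NC 24 h the mean RPKM was 84.4 for Sfrp2, 11.6 for Sfrp1, 0.976 for Wnt5a, 0.6 for Dkk3, 0.465 for Sfrp4, 0.234 for Axin2 and 0.0452 for Dkk2. In every group the ranges of Sfrp2, Sfrp1 and Wnt5a over libraries did not overlap with one another, whereas from Wnt5a down to the lowest member above 0 each range overlapped with the next in order. RPKM divides by transcript length although these libraries cover 3′ ends, so the levels of long transcripts are understated against short ones. Counted as reads with no division by length, Sfrp2 had 4367 and Sfrp1 1344 in the 6 NC 24 h libraries.

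Sfrp2, a secreted frizzled-related protein that binds Wnt ligands outside the cell, was lower in KD at both times. At 24 h it measured 66.2, 59.9, 52.3, 57.9, 58.2 and 58.2 RPKM in KD replicates 1 to 6 and 87.7, 86.4, 84.9, 82.7, 84.7 and 79.8 RPKM in NC. Every KD library lay below every NC library, on 2871 reads in KD and 4367 in NC. The difference, KD minus NC, was -0.58 ± 0.09 on the log2 scale (SE, 95% interval -0.76 to -0.40, limma with Benjamini-Hochberg adjusted p = 0.00066), a fold of 0.669. The ratio of the deposited means, which are not scaled between libraries, was 69.7%. Among all 53840 entries tested at 24 h, 11.2% were called lower in KD and 21.8% in either direction.

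At 72 h Sfrp2 measured 104, 127, 106, 111, 29.5 and 35.5 RPKM in KD replicates 1 to 6. NC held 299, 300, 318, 111, 118 and 215 RPKM. The groups overlapped over all libraries, because the smaller cluster was low in both: its 2 KD libraries lay at 29.5 and 35.5 and its 2 NC libraries at 111 and 118, while the larger cluster lay at 104 to 127 in KD and 215 to 318 in NC. Within each cluster the groups did not overlap. The log2 difference was -1.62 ± 0.44 (SE, interval -2.57 to -0.68, limma adjusted p = 0.017). It was -1.49 ± 0.13 within the larger cluster (adjusted p = 2e-05) and -2.15 ± 0.15 within the smaller one (adjusted p = 0.0001). The SE and p-values within clusters are likely too small, because the clusters were formed from these same libraries. In mean deposited RPKM, KD reached 40.7% of NC over all libraries, 40.8% in the larger cluster and 28.4% in the smaller one. At 72 h 12.1% of the 53926 entries tested were called lower in KD and 22.6% in either direction.

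**Figure D1:**
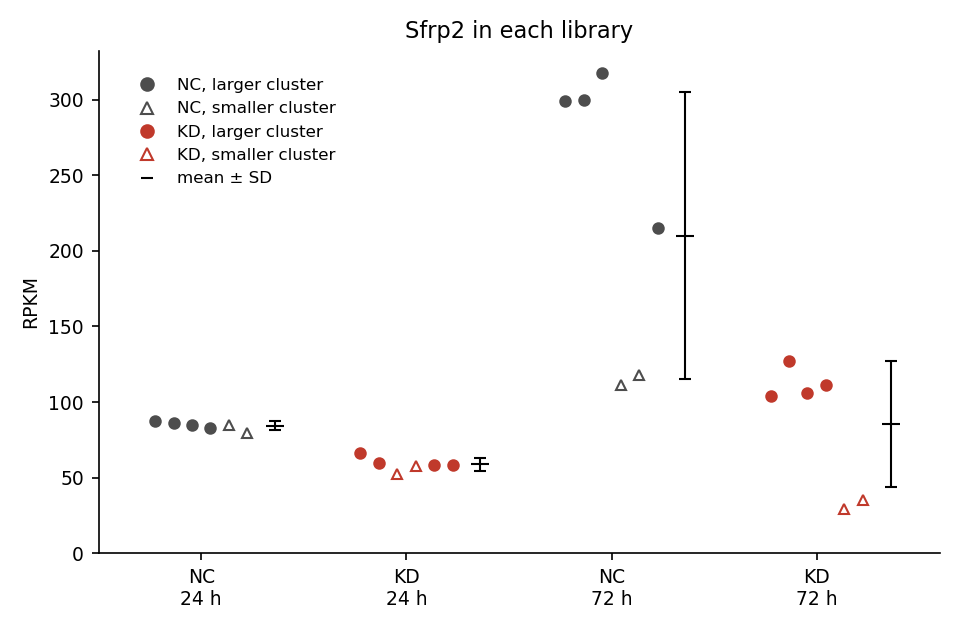
Sfrp2 abundance in RPKM (vertical axis) in each of the 24 libraries by group, with circles for the larger and triangles for the smaller cluster of libraries and the mean ± SD to the right of each group (n = 6, and n = 5 in NC 72 h, where replicates 2 and 3 were counted as 1). At 24 h all KD libraries lie below all NC libraries, and at 72 h KD lies below NC within each cluster.

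Leaving out any 1 sample kept the Sfrp2 call at both times, with a log2 difference of -0.60 to -0.55 at 24 h and -1.84 to -1.34 at 72 h. In a fit of all 4 groups together, whose common spread includes the wide 72 h groups, the 24 h difference was -0.60 and no longer passed (adjusted p = 0.18). In the controls Sfrp2 rose over time, from 84.4 ± 2.79 (SD, n = 6) at 24 h to 210 ± 94.9 (SD, n = 5) at 72 h, a log2 difference of 1.21 ± 0.24 (limma adjusted p = 0.005). That rise was 1.70 ± 0.12 within the larger cluster (adjusted p = 7.1e-06) and 0.46 ± 0.12 within the smaller one, where it did not pass (adjusted p = 0.082). In KD the mean went from 58.8 ± 4.48 to 85.5 ± 41.9 RPKM (SD, n = 6), and the clusters went opposite ways. It went from 60.6 ± 3.82 to 112 ± 10.4 RPKM in the larger cluster (SD, n = 4) and from 55.1 ± 3.98 to 32.5 ± 4.26 in the smaller one (SD, n = 2), and KD over time was not tested. The change of the knockdown effect from 24 h to 72 h was -1.03 ± 0.47 (interval -2.00 to -0.06) and did not pass over all libraries (limma adjusted p = 0.39, with 0.192% of 59367 entries called). It passed within the larger cluster at -0.89 ± 0.17 (adjusted p = 0.018) and within the smaller cluster at -1.59 ± 0.17 (adjusted p = 0.00081). Because the clusters were formed from these same libraries, those passes do not establish a change of the effect.

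The other entries of Sfrp2 were examined, since entries of 1 gene share reads. A full-length cDNA (AK147091, 1996 bases) gave the same differences as the RefSeq entry of 2001 bases, -0.58 at 24 h and -1.62 at 72 h. A shorter cDNA (AK138252, 1227 bases), at a mean of 6.03 RPKM, differed by 0.48 ± 0.31 at 24 h and -0.55 ± 0.31 at 72 h and passed at neither time (limma adjusted p = 0.27 and 0.22). Whether counting used strand is not given in the sources used here, so reads of an overlapping antisense transcript could not be told apart from those of Sfrp2.

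In mixed cultures, fewer cells of a type and less RNA per cell cannot be told apart. The 8 fibroblast and preadipocyte markers summed to a mean of 1186 RPKM in the larger and 750 in the smaller cluster of NC 24 h, 1462 and 781 in NC 72 h, 1163 and 629 in KD 24 h, and 1292 and 1313 in KD 72 h. Sfrp2 at 72 h was low in the smaller cluster of both groups. The marker sum at 72 h was lower in the smaller cluster of NC and alike in the 2 clusters of KD. Of the 5 of these markers fitted at 72 h, Col3a1 was lower and Cd34 higher in KD, beside 22.6% of all entries called. None of the 6 fitted at 24 h was called, beside 21.8% of all entries. Smooth muscle and pericyte markers ran the other way, at 373 and 981 RPKM in NC 24 h and 235 and 604 in NC 72 h for the larger and smaller cluster. The macrophage markers went apart at 72 h, where Csf1r was higher by 1.23 ± 0.25 and Lyz2 lower by a log2 difference of -3.68 ± 0.59 in KD (limma adjusted p = 0.0031 and 0.00065). The part of these markers in the Sfrp2 values was not tested.

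Sfrp1, the other abundant member and likewise a Wnt-binding protein, differed less. At 24 h KD libraries held 9.97, 9.89, 9.33, 10.1, 5.43 and 10 RPKM and NC libraries 9.71, 13.5, 11.6, 10, 14 and 11. The groups overlapped, and KD 24 h replicate 5 stood apart from its group. The log2 difference at 24 h was -0.42 ± 0.18 (interval -0.80 to -0.04) and did not pass (limma adjusted p = 0.099), nor within either cluster.

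At 72 h Sfrp1 lay at 15.3 to 25 RPKM in KD (median 20.4) and 15.3 to 19.9 in NC (median 15.6). The groups covered each other, and the log2 difference of -0.01 ± 0.15 (interval -0.33 to 0.32) became 0.24 ± 0.15 without scaling between libraries (adjusted p = 0.23). Leaving the 72 h values unscaled moved the median of all entries to 0.25 on the log2 scale, and 80.9% of the calls over all entries were then higher in KD, against 46.2% with scaling. Over time in NC, Sfrp1 rose from 11.6 ± 1.76 to 16.7 ± 1.81 RPKM (SD, n = 6 and n = 5), by 0.55 ± 0.13 on the log2 scale (limma adjusted p = 0.014). All NC 72 h libraries lay above all NC 24 h libraries. The rise was 0.62 within the larger cluster (adjusted p = 0.031) and 0.39 within the smaller one (adjusted p = 0.38). A shorter cDNA of Sfrp1 (1017 bases, mean 23.6 RPKM) rose by 0.45 ± 0.14 and did not pass (limma adjusted p = 0.057). Those of 2296 and 2704 bases rose by 0.59 and 0.60 and passed (adjusted p = 0.021 and 0.023).

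Sfrp4, a frizzled-related protein linked to insulin secretion and obesity, was near the limit of detection. It was above 0 in 2 of 6 KD 24 h, 5 of 6 NC 24 h, 3 of 6 KD 72 h and 6 of 6 NC 72 h libraries. The groups held 5, 23, 9 and 21 reads in that order. Mean RPKM was 0.117 ± 0.234 in KD and 0.465 ± 0.361 in NC at 24 h (SD, n = 6 each, two-sided exact permutation test, p = 0.076), and 0.23 ± 0.271 and 0.541 ± 0.245 at 72 h (n = 6 and n = 5, exact p = 0.095). No difference was detectable at this depth, and at 24 h the exact p became 0.026 without KD replicate 1 and 0.026 without NC replicate 1. Leaving out any other single 24 h sample gave no exact p under 0.05, with values of up to 0.15. These p-values are 2 of 9 such tests on low members and are not adjusted.

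Sfrp5, an adipocyte product reported to bind Wnt5a, had 0 reads in all 24 libraries. Among 94919554 mapped reads in all, a count of 0 allows up to 0.0316 RPM, the usual depth-scaled read count without division by length, taking 3 reads as the floor. The RefSeq entry of Wif1, which binds Wnt ligands directly, had 2 reads, both in KD 72 h replicate 2 (0.27 RPKM), and 0 in the 23 other libraries. Of the 5 entries of Wif1, 4 were above 0 in at least 1 library. Neither gene could be compared, and such floors cover counting error only.

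Dkk3, a divergent Dickkopf protein, gained reads with time. In NC it measured 0.29, 0.27, 0.45, 1.21, 0.76 and 0.61 RPKM at 24 h and 1.23, 0.82, 0.88, 1.38, 1.50 and 2.41 at 72 h. Only NC 24 h replicate 4 reached into the 72 h range. The log2 difference over time was 1.26 ± 0.36 (limma adjusted p = 0.04), on 53 reads at 24 h and 99 at 72 h. It was 1.40 within the larger and 0.95 within the smaller cluster, and passed in neither (adjusted p = 0.11 and 0.3). The call was also lost when any of NC 24 h replicates 1, 2, 3 and 6 or NC 72 h replicates 1, 4, 5 and 6 was left out, with adjusted p of up to 0.11 and differences of 1.06 to 1.30. Dkk3 passed the filter on low values through its 72 h libraries, and in a fit with no filter its difference of 1.24 did not pass (adjusted p = 0.16). With a pseudocount of 1 in place of 0.1 the difference was 0.64 (adjusted p = 0.034).

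Against the controls, Dkk3 was under the filter on low values at 24 h, at 0.269 ± 0.223 RPKM in KD and 0.6 ± 0.354 in NC (SD, n = 6 each, exact permutation p = 0.071). Without KD replicate 1 or NC replicate 2 that p was 0.026 or 0.035. At 72 h the means were 2 ± 0.441 in KD and 1.47 ± 0.579 in NC, and the log2 difference of 0.23 ± 0.26 did not pass (interval -0.33 to 0.79, limma adjusted p = 0.57). The change of the knockdown effect between times, 1.34 ± 0.56, had an unadjusted p = 0.025 in limma and an adjusted p of 0.34.

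Dkk2, an LRP co-receptor ligand, was nearly absent at 24 h, with 7 reads in KD and 5 in NC. At 72 h KD libraries held 0.35, 1.15, 0.95, 0.20, 1.05 and 1.27 RPKM and NC libraries 0.28, 0.07, 0.00, 0.21, 0.68 and 0.55. The highest 4 values were in KD, but KD replicates 1 and 4 lay within the NC range. The means of 0.829 ± 0.446 and 0.35 ± 0.26 RPKM (SD, n = 6 and n = 5) rested on 68 and 25 reads (exact permutation p = 0.069). Counting NC 72 h replicates 2 and 3 separately gave an exact permutation p = 0.037, and leaving out KD 72 h replicate 1 or 4 gave 0.048 or 0.024. Leaving out any other single sample gave no exact p under 0.05, with values of up to 0.13. In NC the mean was higher at 72 h than at 24 h, at 0.35 against 0.0452 ± 0.0716 RPKM (exact p = 0.017), the smallest of the 9 unadjusted p-values.

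Wnt5a, a ligand that signals mostly outside the β-catenin branch, was the only ligand, of the members and the 17 others listed, whose level allowed a fit. NC libraries held 0.44, 1.33, 1.05, 1.15, 1.11 and 0.77 RPKM at 24 h and 2.21, 2.66, 2.79, 2.27, 2.14 and 2.08 at 72 h. All NC libraries at 72 h lay above all at 24 h. The log2 difference over time was 1.23 ± 0.26 (limma adjusted p = 0.0072), or 0.76 with a pseudocount of 1 (adjusted p = 0.0029). It was 1.28 within the larger cluster (adjusted p = 0.051) and 1.14 within the smaller one (adjusted p = 0.19).

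Wnt5a did not separate KD from NC. KD libraries held 1.38, 2.23, 1.41, 1.23, 0.94 and 0.58 RPKM at 24 h and 2.42, 1.88, 2.68, 1.65, 2.65 and 1.93 at 72 h, and the groups overlapped at both times. The log2 difference was 0.29 ± 0.33 at 24 h (interval -0.41 to 1.00, limma adjusted p = 0.55) and -0.31 ± 0.20 at 72 h (interval -0.73 to 0.12, adjusted p = 0.29). Of its 12 entries 9 were above 0, and the second RefSeq entry (NM_009524) gave 0.25 and -0.31 for KD and 1.20 over time. At 72 h an entry of 7009 bases differed by -0.51 ± 0.21 (interval -0.96 to -0.06) and did not pass (limma adjusted p = 0.094). The cDNAs of 3659, 3809 and 3650 bases gave -0.10, -0.08 and -0.04 at that time. Wnt10b, the ligand best known for holding back adipogenesis, had 0 reads in all 24 libraries, which allows the same 0.0316 RPM.

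Axin2, induced by β-catenin and a scaffold of the complex that degrades it, was low. At 72 h it measured 0.36, 0.72, 1.12, 0.81, 0.91 and 1.52 RPKM in KD and 0.65, 0.06, 0.06, 0.18, 0.39 and 0.40 in NC. Of the KD libraries 5 lay above all NC libraries, and KD replicate 1 lay within the NC range. The groups held 88 and 26 reads, and Axin2 passed the filter on low values largely through its KD libraries, where it was higher. The log2 difference of 1.09 ± 0.41 (interval 0.20 to 1.98) did not pass (limma adjusted p = 0.073), and with a pseudocount of 1 it was 0.42 (adjusted p = 0.068). It passed without scaling (1.29, adjusted p = 0.03), with NC 72 h replicates 2 and 3 counted separately (1.30, adjusted p = 0.03), without KD 72 h replicate 1 (1.29, adjusted p = 0.04) and without NC 72 h replicate 1 (1.34, adjusted p = 0.042). It did not pass with no filter (1.10, adjusted p = 0.22), with the replicate number as a block (1.00, adjusted p = 0.17) or with all 4 groups fitted together (1.08, adjusted p = 0.15). Nor did it pass when any other single sample was left out, and without NC 72 h replicate 2 it was 0.77 (adjusted p = 0.18). Within the larger and smaller cluster it was 0.88 and 1.51 (adjusted p = 0.28 and 0.13).

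At 24 h Axin2 was under the filter, with 0.67, 0.39, 0.14, 0.13, 0.19 and 2.19 RPKM in KD and 0.31, 0.09, 0.42, 0.17, 0.37 and 0.05 in NC. The highest value came from KD 24 h replicate 6, the shallowest library, on 13 reads. The means were 0.62 ± 0.797 and 0.234 ± 0.155 RPKM (SD, n = 6 each, exact permutation p = 0.28). The direction differed between the clusters: the means of KD and NC were 0.861 and 0.246 RPKM in the larger cluster and 0.138 and 0.209 in the smaller one. In NC the mean was 0.336 ± 0.224 at 72 h (n = 5), which did not differ detectably from 24 h (exact p = 0.37).

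**Figure D2:**
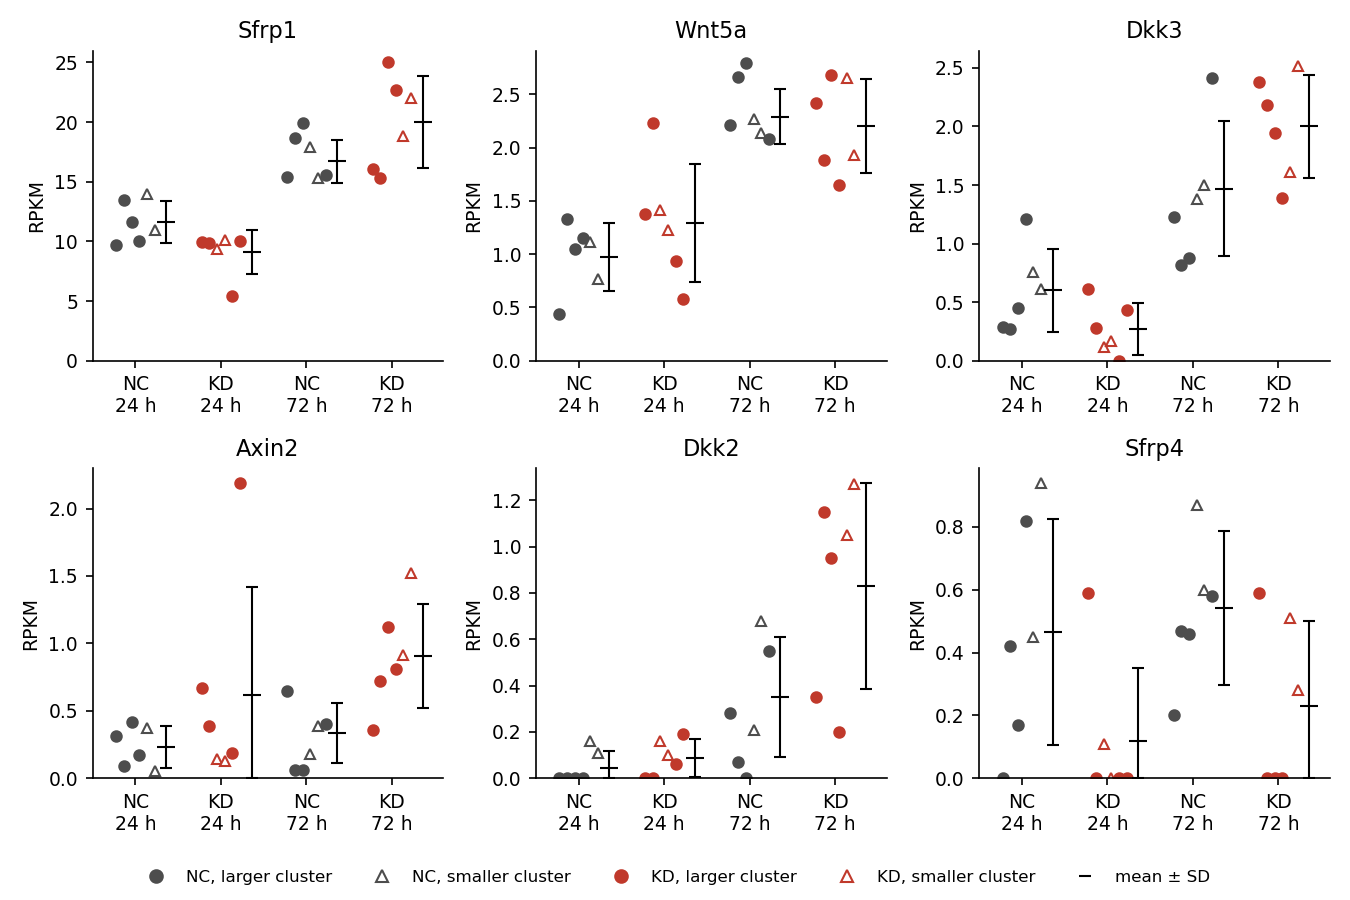
RPKM (vertical axes) of Sfrp1, Wnt5a, Dkk3, Axin2, Dkk2 and Sfrp4 in each library by group, with circles for the larger and triangles for the smaller cluster and the mean ± SD beside each group (bars end at 0; n = 6, and n = 5 in NC 72 h). Sfrp1 and Wnt5a separate the 2 times in NC, and the KD and NC ranges of all 6 genes overlap at both times.

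Counted together, the filter on low values let 3 members into the fit at 24 h, 5 at 72 h, 4 over time in NC and 6 in the test of the change of the effect. Of these, 1 was called lower in KD at 24 h and 1 at 72 h, Sfrp2 both times, and none higher. Over time in NC all 4 were called higher, where 9.20% of 52522 entries were called and 4.66% called higher. A member that passed the filter only through its higher group had to differ, so these counts describe the fitted members and not the list. In the test of the change of the effect, limma called 0 of 6 members, and 2 of 6 had an unadjusted p under 0.05. The KD comparison at 72 h and the comparison over time share the NC 72 h libraries, and the comparison at 24 h shares the NC 24 h libraries with it, so their differences are not independent.

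**Figure D3:**
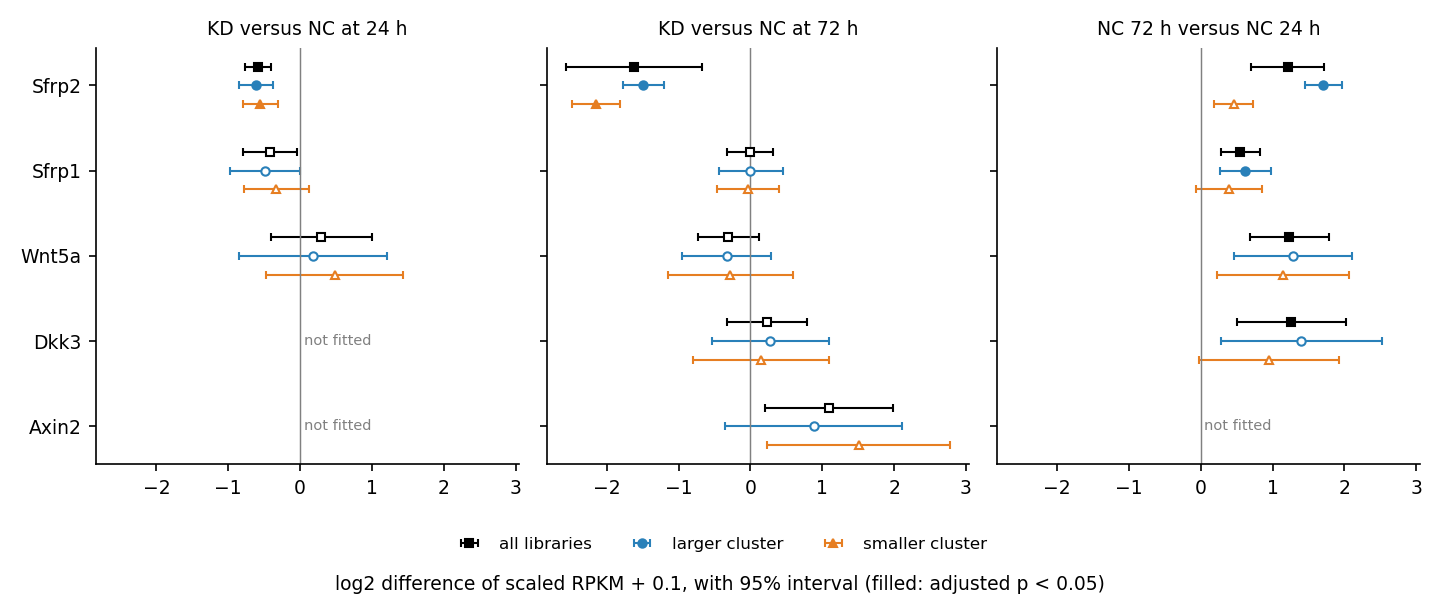
Log2 differences of scaled RPKM + 0.1 (horizontal axis) with 95% intervals for the 5 members fitted in at least 1 of the 3 comparisons shown, over all libraries (squares) and within the larger (circles) and smaller (triangles) cluster. Filled symbols passed the limma test at an adjusted p under 0.05: Sfrp2 is filled in all 3 fits of both KD comparisons, and Sfrp1, Wnt5a, Dkk3 and Axin2 are in none of them.

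The rest of the pathway was read from lists of 103 genes without the members. Of these, 50 were fitted at 24 h and 49 at 72 h. At 24 h 9 were higher and 6 lower in KD, and at 72 h 8 were higher and 7 lower, which is 15 called at each time, beside the 21.8% and 22.6% of all entries given above. Without scaling the split at 72 h was 11 higher and 3 lower. The count of higher genes at 24 h rested on single libraries: it was 3, beside 7 lower, without KD 24 h replicate 1, 4 without KD replicate 2 or NC replicate 3 or 4, and 5 without KD replicate 5 or NC replicate 2 or 6. Without KD 24 h replicate 6 the split was 9 higher and 10 lower, and with no filter it was 4 and 6. Within the larger cluster 14 were higher and 7 lower at 24 h, and within the smaller one 0 were higher and 2 lower. In NC over time 4 of 49 fitted genes were called, all higher, beside 9.20% of all entries called and 4.66% called higher. The median log2 difference of the fitted genes was 0.25 at 24 h and 0.06 at 72 h, against -0.01 and 0.01 over all entries.

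None of the 17 other ligands reached the fit. Their highest mean levels were those of Wnt4, Wnt2, Wnt5b and Wnt9a, at 0.264, 0.232, 0.215 and 0.0597 RPKM in NC 24 h. Of the 16 other secreted inhibitors and enhancers, 2 were fitted at 24 h and 3 at 72 h. At 72 h 1 was called, where 22.6% of all entries were called. That gene was Cthrc1, a collagen triple helix protein that stabilises Wnt5a-type receptor complexes. Cthrc1 measured 80 to 91.3 RPKM in KD 72 h and 20.5 to 38.6 in NC 72 h, with no overlap (log2 difference 1.25 ± 0.13, limma adjusted p = 3.7e-05). At 24 h it stood at 15.1 ± 2.55 and 11.7 ± 1.91 RPKM (SD, n = 6 each), and the difference of 0.30 ± 0.15 did not pass (adjusted p = 0.16). The change of the effect between times passed for Cthrc1, at 0.95 ± 0.20 (limma adjusted p = 0.045). Its sign was opposite to that of the -1.03 of Sfrp2, which did not pass (adjusted p = 0.39). Both genes rose with time in NC.

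Among 26 receptors and membrane regulators, 3 were higher and 4 lower in KD at 24 h, of 15 fitted. At 72 h 2 were higher and 4 lower, of 14. The share called over all entries was 21.8% at 24 h and 22.6% at 72 h. The gene with the smallest p was Lgr4, a receptor for R-spondins, which enhance Wnt signalling. Lgr4 fell to 15.9 to 56.1 RPKM in KD 24 h, against 97.6 to 126 in NC 24 h, and to 26.9 to 47.2 in KD 72 h against 85.5 to 128 in NC 72 h, without overlap at either time. Its log2 differences were -1.77 ± 0.26 and -1.68 ± 0.19 (limma adjusted p = 0.00058 and 5.2e-05). Ryk, a Wnt-binding receptor of the kinase family, and Znrf3, a ubiquitin ligase that removes Frizzled receptors, were lower at both times, by log2 differences of -0.91 ± 0.18 and -0.79 ± 0.14 for Ryk and -1.18 ± 0.33 and -0.79 ± 0.19 for Znrf3. Wls, the carrier that ligands need for secretion, was higher at 72 h, at 13.7 ± 1.94 against 7.43 ± 1.19 RPKM (log2 difference 0.63 ± 0.15, limma adjusted p = 0.009).

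Of 19 cytoplasmic transducers, 15 were fitted at each time, 3 were higher at 24 h, 2 were higher at 72 h and none was lower. Calls over all entries were 21.8% at 24 h and 22.6% at 72 h, so these counts are no result about the list. Ctnnb1, which encodes β-catenin, was higher by 0.82 ± 0.23 at 24 h and 0.53 ± 0.12 at 72 h (limma adjusted p = 0.02 and 0.0049). Within the smaller cluster its differences were 0.19 ± 0.17 and 0.45 ± 0.18 and did not pass (adjusted p = 0.58 and 0.16). The casein kinases Csnk1d and Csnk1e were higher at 24 h (0.73 ± 0.23) and at 72 h (0.83 ± 0.19), respectively, and the tankyrase Tnks2, which marks axins for degradation, was higher at 24 h (0.69 ± 0.23).

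Nuclear factors went both ways. Of 15 genes, 11 were fitted at 24 h with 2 lower, and 10 at 72 h with 2 lower and 1 higher. Over all entries, 21.8% were called at 24 h and 22.6% at 72 h. Tcf7l1 and Tcf7l2, both DNA-binding partners of β-catenin, were lower by log2 differences of -1.39 ± 0.23 and -1.17 ± 0.22 at 24 h (limma adjusted p = 0.0014 and 0.0027). At 72 h they were -0.81 ± 0.22 and -0.55 ± 0.18 (adjusted p = 0.018 and 0.04), and without scaling -0.56 and -0.30, which did not pass (adjusted p = 0.08 and 0.15). Pygo2, a coactivator of β-catenin, was higher at 72 h by 0.91 ± 0.21 (adjusted p = 0.007).

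Of 19 genes listed as β-catenin targets, 8 were fitted at each time. At 24 h 3 were higher and 1 lower, and at 72 h 2 of each, beside 21.8% and 22.6% of all entries called. Myc, a growth regulator, was higher by 0.68 ± 0.20 and 0.62 ± 0.11, and Cd44, a hyaluronan receptor, by 0.59 ± 0.16 and 0.56 ± 0.16 (limma adjusted p = 0.026, 0.0017, 0.019 and 0.018). Jun, part of the AP-1 complex, was higher at 24 h by 1.77 ± 0.41 (adjusted p = 0.0079) and differed by 0.50 ± 0.31 at 72 h (adjusted p = 0.28). Znrf3, named above, was the target that was lower at both times. These genes answer to other signals as well, and the list has no test of its own.

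Median gene length in the genome ran with the direction of the calls, but the ranges overlapped. The 6 pathway genes lower at 24 h had a median span of 130 kb (5.7 to 192). It was 12.7 kb (3.2 to 90.5) for the 9 higher ones and 37.7 kb (4.4 to 177) for the 35 not called. At 72 h the medians were 96.6 kb (5.7 to 192) for the 7 lower genes and 18.6 kb (4.4 to 99) for the 8 higher ones. For the others the median was 41.2 kb (3.2 to 177). Sfrp2, lower at both times, spans 8.6 kb, and Sfrp1 38.2 kb. The part of gene length in these differences was not tested.

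**Figure D4:**
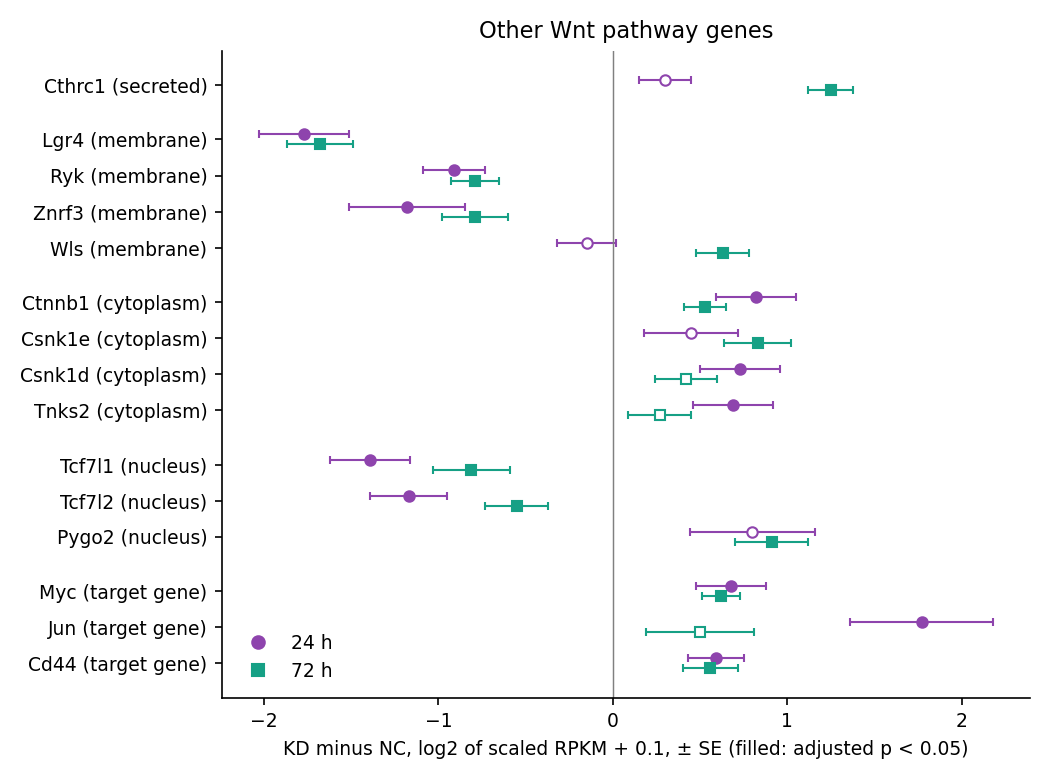
KD minus NC as log2 of scaled RPKM + 0.1 (horizontal axis, ± SE) at 24 h (circles) and 72 h (squares) for the called Wnt pathway genes named in the text, by their place in the pathway, with filled symbols at a limma adjusted p under 0.05. Lgr4, Ryk, Znrf3, Tcf7l1 and Tcf7l2 lie left of 0 at both times, and Ctnnb1, Myc and Cd44 right of it.

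The genes most like the 3 most abundant members across 23 samples were sought by the root mean square difference of centred log2 values over 10721 symbols. For Sfrp2 the closest entry was the cDNA AK137033, which carries no gene symbol of its own (0.07). Whether this cDNA shares reads with Sfrp2 was not examined, so it may not be a separate gene. Next came Pam (0.40), which amidates peptides in the secretory pathway, and Rbl2 (0.45), a retinoblastoma-family protein, against a median of 0.97. Sfrp1 was closest to Sparc (0.26), a matrix glycoprotein, Stx5a (0.27) and Serpinf1 (0.28), against a median of 0.66. Wnt5a was closest to Leprel2 (0.32), Mfap5 (0.40), a microfibril protein, and Fkbp7 (0.41), against a median of 0.78. The values are a description of likeness over samples that share groups and libraries, and carry no test.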

How the data were processed

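Libraries of 24 samples were prepared by the study by bulk RNA barcoding and 3′ end sequencing, in which full-length cDNA is tagmented and transcript ends are read. The deposited table gives RPKM, which the authors computed with the Genomatix suite for 168326 transcript entries; the version, genome build and filters for these libraries are not given in the sources used here. Every column was used (0 were left out).

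Because RPKM rise in steps of 1 read, mapped totals and read numbers were recovered. In 23 libraries 92.4% to 93.2% of low values were whole multiples of the step. In NC 72 h replicate 6 the share was 72.8%, and 20.3% lay midway between whole multiples. Recovered lengths of 26542 Ensembl entries matched GENCODE M21 in 91.0%. NC 72 h replicates 2 and 3 differed by 0.35 of counting noise (next lowest of 276 pairs: 1.95). Clusters came from deviations of 9116 genes from group means.

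Within each comparison, libraries were brought to 1 scale with trimmed means (30% of log ratios and 5% of levels trimmed). An entry was fitted if the number of samples worth at least 10 reads at median depth reached the size of the smaller group, and its reads summed to 15 or more. limma 3.58.1 (R 4.3.3; lmFit, eBayes with trend) was fitted to log2(scaled RPKM + 0.1) for all such entries, with two-sided p-values adjusted by Benjamini-Hochberg and called under 0.05. Fold changes on this scale understate low genes. The code was tested on simulated data. For members under the filter, deposited RPKM entered exact permutation tests, two-sided (scipy 1.17.1). The members, the pathway and marker lists and the rules were chosen with earlier results of these data known. The text names all members, up to 4 genes of each pathway list (called in either KD comparison with the smallest p, or else most abundant) and, for likeness, 3 symbols for each of 3 members. Col3a1, Cd34, Csf1r and Lyz2 were named after their values were seen. Matching of symbols to promoter windows was by name.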

Additional observations from a re-analysis of the deposited data

Results flagged for a closer look

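2 member values stood apart from the other samples of their group, among 25 groups of values tested by Dixon's ratio at its 95% critical value, which by chance would mark about 1 in 20. Sfrp1 measured 5.43 RPKM in KD 24 h replicate 5, while the 5 other KD 24 h libraries held 9.33 to 10.12 RPKM. Without that library the Sfrp1 difference at 24 h was -0.28 on the log2 scale in place of -0.42, and limma called neither (adjusted p = 0.19 and 0.099). Axin2 measured 2.19 RPKM in KD 24 h replicate 6, on 13 reads, while the 5 others held 0.13 to 0.67 RPKM. Without KD 24 h replicate 6, the difference of the Axin2 means at 24 h was 0.0715 RPKM in place of 0.386, and neither passed.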

How the results depend on the processing

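Sfrp2 stayed lower in KD under every alternative, and its call was lost only at 24 h in the fit of all 4 groups together. That fit called 2 members at 24 h, Dkk3 and Sfrp1, both lower, in place of 1. At 72 h 2 members were called in place of 1 without scaling and with NC 72 h replicates 2 and 3 separate, Axin2 being added, and 1 to 2 when single samples were left out. Over time in NC, 3 of the 4 calls remained without the filter, where Dkk3 was lost (adjusted p = 0.16), 2 in the fit of all groups (Sfrp2 and Wnt5a), 2 within the larger cluster (Sfrp1 and Sfrp2) and 0 within the smaller one, where limma had fewer samples, and 3 to 4 when single samples were left out. The change of the effect over time called 1 member, Sfrp2, within the larger and 1 within the smaller cluster, against 0. The other pathway genes gave 2 calls at 24 h and 7 at 72 h within the smaller cluster, against 15 and 15, and 10 to 19 and 13 to 16 when single samples were left out; the pathway counts, the fit with the cluster as a term and the alternatives for exact tests were added after seeing the data. Directions turned for Sfrp1 at 72 h, which was 0.00 without the filter, with 1 entry per gene and within the larger cluster, 0.24 without scaling, and -0.09 to 0.06 when single samples were left out. They also turned for the Axin2 change of effect (-0.18 within the larger cluster) and for the Sfrp4 difference over time (-0.0174 to 0.17 RPKM when single samples were left out). The causes were not tested. Members with few reads are limited by depth.

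Replicate numbers did not pair the samples: the mean correlation of same-numbered libraries was -0.07 between KD and NC at 24 h, 0.03 at 72 h and 0.03 over time. With the number as a replicate block, Sfrp2 passed at 24 h (adjusted p = 0.0086, limma) and at 72 h (-1.74, adjusted p = 0.011), and 2 members, Sfrp2 and Wnt5a, passed over time, where Sfrp1 (0.55, adjusted p = 0.06) and Dkk3 (1.21, adjusted p = 0.061) did not. The other pathway genes gave 13 calls at 24 h and 11 at 72 h under the block.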
